A study of Rattus norvegicus with 6 samples.

Results

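The genes of the aminoacyl-tRNA synthetases were examined in polyA-selected mRNA of cortical neural progenitors of the rat. Members were the gene names made of a single capital letter and "ars", with or without a closing 2, together with *Eprs*, *Farsa* and *Farsb*. This naming rule found 35 of the 17337 gene names in the tables, and the rule itself uses no expression value. Of these, 20 names without a closing 2 were taken as cytosolic and 15 names ending in 2 as mitochondrial. The symbols are the older ones of the rn6 annotation, so that *Sars* is the gene now called *Sars1*, and *Iars2* and *Mars2* were not analysed here. The cells came from cortices of Sprague Dawley rats of either sex at embryonic day 14, were untreated, were grown with bFGF and EGF, and were collected after passage 2. There is 1 condition, with 2 biological replicates (A and B), each sequenced as 2 technical libraries (A1 and A2, B1 and B2). All levels are FPKM, the fragments scaled to transcript length and library depth, which allows genes to be compared with each other. Genes whose mean was 1 FPKM or higher are called expressed genes, and there were 10481 of them. A mean ± SD is over the 2 biological replicates after averaging the technical libraries, and no test between conditions was possible.

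Aminoacyl-tRNA synthetases join each amino acid to its tRNA before translation. The enzymes fall into class I and class II by the fold of the catalytic domain. Most amino acids are served by a cytosolic enzyme and by a separate mitochondrial enzyme, which is also encoded in the nucleus and imported. *Gars* and *Kars* are known exceptions that supply both compartments from the same gene, *Eprs* encodes a fused enzyme for glutamate and proline, and *Farsa* and *Farsb* encode the subunits of the cytosolic enzyme for phenylalanine. Several cytosolic enzymes assemble into the multisynthetase complex around the scaffold proteins Aimp1, Aimp2 and Eef1e1. When amino acids or charged tRNA run short, the kinase Gcn2 (*Eif2ak4*) leads to translation of the factor Atf4, which binds the amino acid response element.

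Promoter windows from 250 bases before to 50 bases after the start were found in the RefSeq table (build GRCr8) for 31 of the 35 members, 17 cytosolic and 14 mitochondrial. *Dars*, *Gars* and *Rars* were among those with none. The amino acid response element was searched as TGATGNAA on both strands, and 7 of the 17 cytosolic windows (41.2%) and 0 of the 14 mitochondrial windows held a match. The same motif was found in 184 of 8947 windows (2.06%) of expressed genes and in 3.98% of all 33469 windows. At such shares, 0 matches in 14 windows is near what the background gives. Each of the 7 genes, *Aars*, *Cars*, *Iars*, *Mars*, *Nars*, *Tars* and *Yars*, held the word TGATGCAA or its reverse complement TTGCATCA, a form that was singled out after the matches were seen. That word was in 51 (0.570%) of the windows of expressed genes and in 0.795% of all windows. The stretches around the 5 matches upstream of the start are shown because the cytosolic share was above that of expressed genes, with the match in capitals:
*Aars* (Aars1, chr19:55908350-55908397, plus strand, match begins 112 bases before the start): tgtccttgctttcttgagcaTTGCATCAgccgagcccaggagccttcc
*Tars* (Tars1, chr2:62114803-62114849, minus strand, 27 bases before the start): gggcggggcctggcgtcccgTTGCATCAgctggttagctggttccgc
*Iars* (Iars1, chr17:15193653-15193696, minus strand, 24 bases before the start): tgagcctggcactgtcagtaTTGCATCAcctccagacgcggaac
*Mars* (Mars1, chr7:65023754-65023790, minus strand, 17 bases before the start): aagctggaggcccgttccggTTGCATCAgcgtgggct
*Nars* (Nars1, chr18:60275783-60275816, minus strand, 14 bases before the start): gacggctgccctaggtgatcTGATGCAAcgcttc

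In *Cars* and *Yars* the word lay at bases 18 and 39 of the transcribed side of the start. *Aars* held a further match, TTTCATCA, from base 10 of that side. A match describes letters in a window and does not show that a factor binds there.

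Other motifs were searched in the same windows, again on both strands. The ETS word CCGGAAGT was in 7 of 17 cytosolic windows (41.2%) and in 3 of 14 mitochondrial windows (21.4%), against 8.71% of windows of expressed genes. The E-box CACGTG was in 5 cytosolic windows (29.4%) and in 1 mitochondrial window (7.14%), against 9.42%. The NRF1 motif was in the window of *Wars2* alone among the members, against 2.02%. The median GC content was 58.3% in members and 61.3% in expressed genes.

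**Figure D1:**
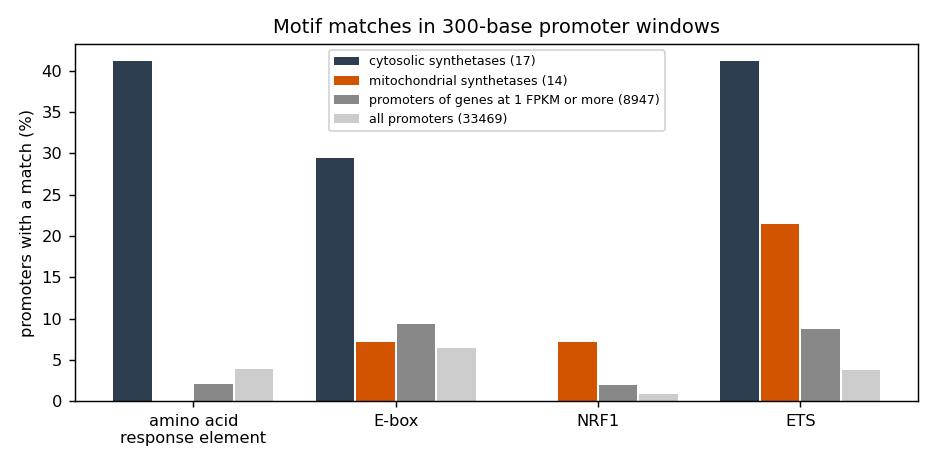
Share of promoter windows, in percent, that hold each of 4 motifs on either strand, for cytosolic (17) and mitochondrial (14) synthetases, for expressed genes and for all windows of the RefSeq table. Matches of the amino acid response element were in 41.2% of cytosolic and in 0 mitochondrial windows, against 2.06% of windows of expressed genes. At that share, 0 of 14 is near what the background gives.

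*Hars* and *Hars2*, for the cytosolic and the mitochondrial enzyme for histidine, start on opposite strands of chromosome 18, with 144 bp between the annotated starts in rn6. Their GRCr8 windows shared a run of 243 bases, so the ETS words counted for *Hars* and *Hars2* are the same bases. The 250 bases before the start of *Hars* are shown because 143 of them also lie before the start of *Hars2*, with the ETS words in capitals:
*Hars* (Hars1, chr18:28672713-28672962, minus strand): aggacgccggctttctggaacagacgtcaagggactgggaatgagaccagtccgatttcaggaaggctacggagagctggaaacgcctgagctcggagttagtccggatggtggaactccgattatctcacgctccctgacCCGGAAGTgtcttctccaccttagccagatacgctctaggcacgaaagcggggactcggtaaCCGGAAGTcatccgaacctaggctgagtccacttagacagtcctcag

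Sequencing depth differed, since a level of 1 FPKM stood for a coverage of 22.7 to 24.4 in A1, A2 and B1 and of 6.83 in B2. All 35 members were nevertheless at 1 FPKM or more in each library, and the lowest mean read depth over a member was 18.9, for *Pars2* in B2. The progenitor label was checked against markers, of which 7 of 8 were in the tables and had means from 33.9 FPKM (*Pax6*) upwards. *Fabp7*, the highest, had 17679 FPKM in A and 6003 in B, and *Hes5* had 398 in A and 180 in B, the widest differences among these markers. *Sox2* and *Notch1* were also higher in A without overlap of libraries. *Vim* (3026 FPKM in A, 3555 in B) and *Nes* (36.3 and 41.8) had higher means in B and *Pax6* a lower one, with overlapping libraries. The cultures also held mRNA of other marker lists. *Tubb3*, of neurons, had 125 FPKM in A and 111 in B, with overlapping libraries. Of the 5 expressed neuronal markers, the other 4 (*Dcx*, *Rbfox3*, *Syt1* and *Snap25*) were higher in A without overlap. *Dcx*, the highest of these, had 11.7 FPKM in A and 7.73 in B. *Gfap*, of astrocytes, had 502, 460 and 419 FPKM in A1, A2 and B1 and 904 in the shallow library B2. *Pdgfra*, of the oligodendrocyte lineage, had 9.29 FPKM in A and 59.4 in B, and *Col1a1*, of mesenchymal cells, 163 in A and 735 in B, whereas all 4 microglial and all 3 endothelial markers had means below 1 FPKM. In such bulk samples, fewer cells of a type and less RNA per cell cannot be told apart.

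Cytosolic synthetase genes were expressed above mitochondrial ones. The median of the 20 cytosolic genes was 44.6, 43.2, 44.1 and 39.7 FPKM in A1, A2, B1 and B2, and that of the 15 mitochondrial genes was 9.25, 7.69, 9.46 and 9.80. The lowest cytosolic median was above the highest mitochondrial median. The ratio of the medians was 4.82, 5.62, 4.66 and 4.06 in the same order, with a mean of 4.65 ± 0.501 (SD, n = 2). By mean level, 13 of the 20 cytosolic genes were above the highest mitochondrial gene, *Tars2*, and 0 of the 15 mitochondrial genes were above the cytosolic median. At 10 FPKM or more there were 19 of 20 cytosolic and 6 of 15 mitochondrial genes. Against the median of all expressed genes, which was 16.3 FPKM, 19 of 20 cytosolic and 4 of 15 mitochondrial genes lay higher. When only members at 10 FPKM or more were kept, which removed mainly mitochondrial genes, the ratio was 2.46.

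**Figure D2:**
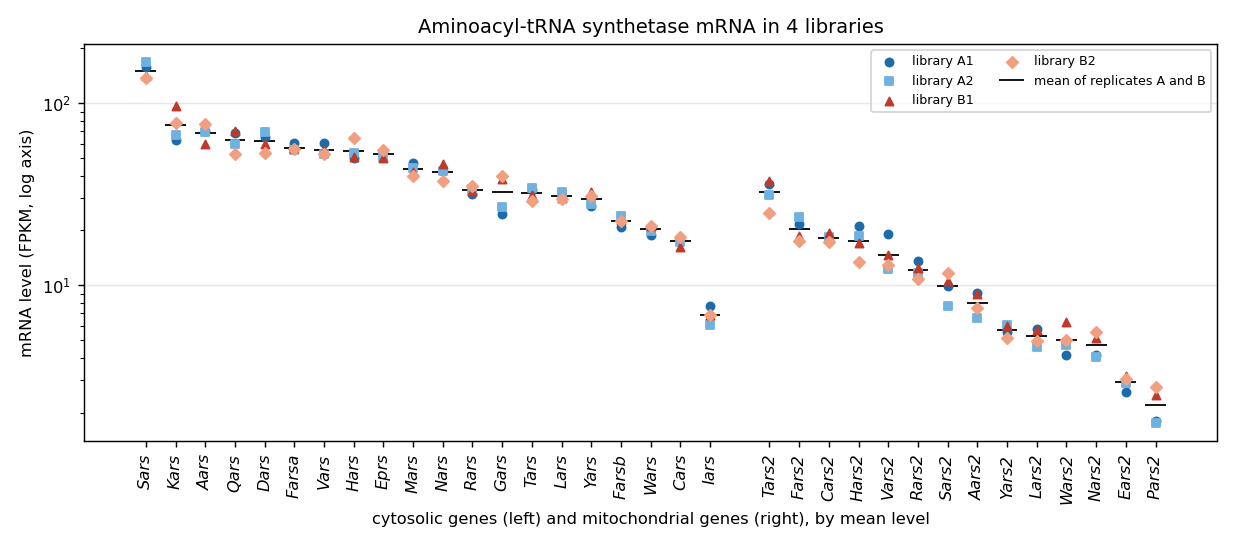
FPKM (log axis) of 20 cytosolic and 14 mitochondrial synthetase genes in each of the 4 libraries, with a bar at the mean of replicates A and B. Cytosolic genes run from *Sars* at 151 FPKM to *Iars* at 6.86, and mitochondrial genes from *Tars2* at 32.4 to *Pars2* at 2.20.

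*Sars*, for the cytosolic enzyme for serine, had the highest level of the family. It had 158 and 168 FPKM in A1 and A2 and 140.5 and 138 in B1 and B2, a mean of 151 ± 16.7 (SD, n = 2), and its rn6 position is chromosome 2, minus strand, 211219748 to 211235440. The lowest *Sars* library was above the highest library of all other members. *Kars*, for lysine, had 62.9 and 67.1 FPKM in A and 95.9 and 77.6 in B. *Aars*, for alanine, had 70.1, 69.5, 59.7 and 76.5 FPKM in A1, A2, B1 and B2. The order of *Kars* and *Aars* did not exceed the spread of the libraries. *Qars*, for glutamine, had 68.7, 59.8, 70.5 and 52.7 FPKM and overlapped both. *Dars*, for aspartate, had 65.0 and 69.5 FPKM in A and 59.4 and 53.1 in B.

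At the lower end of the cytosolic genes stood *Yars*, *Farsb*, *Wars*, *Cars* and *Iars*. *Yars*, for tyrosine, had a mean of 29.6 ± 2.88 FPKM and *Wars*, for tryptophan, 20.3 ± 1.24. *Cars*, for cysteine, had 17.5 ± 0.299 FPKM, and its highest library (18.3) was below the lowest library of *Wars* (18.9). *Iars*, for isoleucine, was apart from the rest with 7.68, 6.02, 6.86 and 6.89 FPKM in A1, A2, B1 and B2. This placed it below 9 of the 15 mitochondrial genes by mean. *Iars* lies on the minus strand of chromosome 17 from 15356016 to 15402631, wholly inside the listed spans of *Nol8*, *Ogn*, *Omd* and *Aspn* on the same strand, each over 848736 to 863635 bp. The part of these overlapping entries in the low value was not tested. Of the other members, only *Mars* overlapped a listed gene, by 62 bp with *Ddit3* on the opposite strand.

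Between these ends the cytosolic levels were closely spaced. *Farsa*, *Vars* (valine), *Hars*, *Eprs*, *Mars* (methionine) and *Nars* (asparagine) had means from 57.1 to 42.0 FPKM. *Rars* (arginine), *Gars*, *Tars* (threonine) and *Lars* (leucine) had means from 33.5 to 30.8 FPKM. Of 19 neighbours in the order of means, 13 had libraries that overlapped, and 7 had the same order within every library. The 6 steps without overlap were those below *Sars*, *Eprs*, *Nars*, *Yars*, *Wars* and *Cars*. The subunits of the enzyme for phenylalanine differed, with *Farsa* at 57.1 ± 0.741 FPKM and *Farsb* at 22.6 ± 0.187. Their ratio was 2.89, 2.29, 2.50 and 2.48 in A1, A2, B1 and B2, with a mean of 2.53 ± 0.0537 (SD, n = 2).

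The 8 synthetase genes of the multisynthetase complex had a median of 47.9 ± 1.57 FPKM and the other 12 cytosolic genes a median of 39.2 ± 1.71. The complex genes ran from *Iars* at 6.86 FPKM to *Kars* at 75.9, and the others from *Cars* at 17.5 to *Sars* at 151. The ratio of the medians was 1.34, 1.24, 1.09 and 1.20 in A1, A2, B1 and B2. With the geometric mean in place of the median it was 0.953, so the direction turned with the summary and the groups were not told apart. The scaffold genes of the complex lay in the same range, *Aimp1* at 64.3 ± 2.70 FPKM, *Eef1e1* at 36.4 ± 1.05 and *Aimp2* at 25.5 ± 2.06.

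*Tars2*, for threonine, led the mitochondrial genes with 36.1, 31.2, 37.4 and 24.9 FPKM in A1, A2, B1 and B2, the last value being that of the shallow library. It lies on the minus strand of chromosome 2 from 197861094 to 197878142. *Fars2*, for phenylalanine, had 21.7 and 23.8 FPKM in A and 18.7 and 17.6 in B. *Cars2*, for cysteine, had 17.6, 18.4, 19.3 and 17.3 FPKM, and *Hars2*, for histidine, had a mean of 17.6 ± 3.32. *Tars2* was above *Fars2* without overlap of libraries, while *Fars2*, *Cars2* and *Hars2* overlapped. *Vars2*, for valine, had a mean of 14.8 ± 1.28 FPKM, and its technical libraries A1 (19.1) and A2 (12.3) were further apart than the replicate means.

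The lowest members were mitochondrial. *Pars2*, for proline, had 1.79 and 1.75 FPKM in A and 2.49 and 2.77 in B, a mean of 2.20 ± 0.604 (SD, n = 2). *Ears2*, for glutamate, had 2.59, 2.89, 3.17 and 3.06 FPKM in A1, A2, B1 and B2. *Nars2*, *Wars2* and *Lars2*, for asparagine, tryptophan and leucine, had means of 4.71 ± 0.886, 5.04 ± 0.874 and 5.26 ± 0.0965 FPKM. *Ears2* was below *Nars2* in all libraries, and *Pars2* was below *Ears2* within each library, although the ranges over libraries overlapped. By mean level, *Pars2* was above 9.12% and *Sars* above 93.6% of the expressed genes. Between these ends, *Rars2*, *Sars2*, *Aars2* and *Yars2* had means from 12.1 to 5.69 FPKM. Of 14 neighbours in the mitochondrial order, 11 overlapped and 7 had the same order within every library.

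For 15 amino acids a cytosolic and a mitochondrial gene could be set side by side. *Eprs* was used for glutamate and for proline, so those ratios share it, and the mean of *Farsa* and *Farsb* was used for phenylalanine. The cytosolic gene was above the mitochondrial gene in all 4 libraries for 13 of the 15. The median of the 15 ratios was 5.22, with 12 at 2 or more and 9 at 4 or more.

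The gap was widest for proline and glutamate. *Eprs*, at 52.6 ± 0.0979 FPKM, was 30.5, 28.8, 20.1 and 20.0 times *Pars2* in A1, A2, B1 and B2, a mean of 24.9 ± 6.78 (SD, n = 2). Against *Ears2* the mean ratio was 18.0 ± 1.62. *Sars* over *Sars2* followed with 16.0, 21.9, 13.3 and 11.8, a mean of 15.5 ± 4.29. Within each of the 4 libraries the ratio of proline was above those of glutamate and serine, while glutamate was above serine in 3 of 4. The ratios of asparagine, alanine, leucine, tyrosine and tryptophan lay between 9.09 (asparagine) and 4.06 (tryptophan), and those of valine, histidine, arginine and phenylalanine between 3.76 and 1.97.

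Threonine and cysteine stood apart at the other end. *Tars* over *Tars2* was 0.929, 1.09, 0.841 and 1.16 in A1, A2, B1 and B2, with a mean of 0.986 ± 0.0243 (SD, n = 2). *Cars* over *Cars2* was 1.03, 0.943, 0.844 and 1.06, with a mean of 0.966 ± 0.0289. In each of these amino acids the cytosolic gene was higher in 2 libraries and lower in 2, so no order was resolved. *Tars* itself, at 32.0 ± 2.55 FPKM, was near *Lars* and *Yars*. *Tarsl2*, a further cytosolic threonine synthetase gene outside the naming rule, had 3.11 ± 0.154 FPKM.

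**Figure D3:**
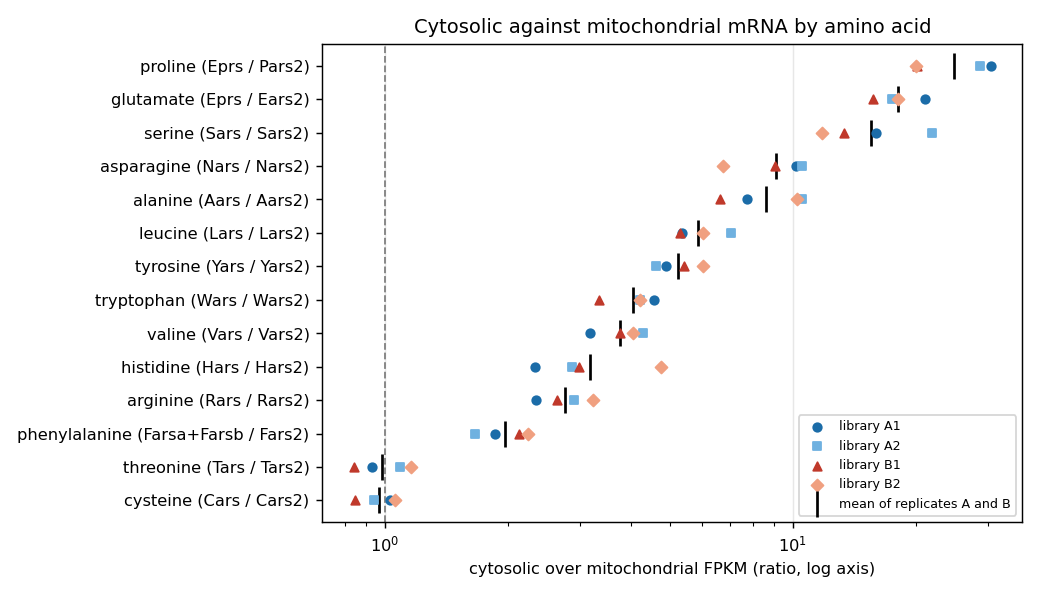
Ratio of cytosolic over mitochondrial FPKM (log axis) for 14 amino acids in each library, with a bar at the mean of replicates A and B and a dashed line at 1. Proline is highest at a mean of 24.9, and threonine (0.986) and cysteine (0.966) lie on both sides of 1.

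Positions of the members were compared with those of all genes. There were 8 members (22.9%), among them *Ears2*, *Hars*, *Hars2*, *Kars*, *Rars2*, *Sars2* and *Yars*, that had a start on the other strand within 1000 bp, head to head, against 1026 of 10481 expressed genes (9.79%). By compartment these were 3 of 20 cytosolic and 5 of 15 mitochondrial genes. *Hars* had 49.7, 53.3, 50.8 and 64.2 FPKM and *Hars2* 21.3, 18.6, 16.96 and 13.5 in A1, A2, B1 and B2. Across the few bases between them, *Hars* was above *Hars2* in all libraries, by a mean ratio of 3.18 ± 0.843. *Sars2* started 194 bp from *Mrps12*, a gene of the mitochondrial ribosome, which had 34.6 ± 0.246 FPKM against 9.95 ± 1.67 for *Sars2*. *Rars2* and *Orc3*, of the origin recognition complex, started 79 bp apart and had 12.1 ± 0.631 and 8.57 ± 0.898 FPKM. *Kars* started 160 bp from *Terf2ip*, a gene of telomere protection, at 28.6 ± 1.96 FPKM.

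Between replicates A and B, which are cultures of the same condition, the median absolute difference was smaller for synthetase genes than for expressed genes. Genes were counted as differing among expressed genes when the means were apart by 1 or more on the log2(FPKM + 1) scale, on which low genes change less than in FPKM, and the libraries of A and B did not overlap. By this rule 0 of 35 members differed, against 650 of 10481 genes (6.20%), of which 4.78% of all genes were higher in B and 1.42% in A. With 35 members, a count of 0 is not far from what this background gives, and the count was not tested. Without a limit on size, 17 of 35 members (48.6%) had libraries that did not overlap, against 60.1% of all genes. There were 10 members higher in B (background 28.1%) and 7 higher in A (background 32.0%). The median absolute difference was 0.11 for members and 0.24 for all expressed genes, and 26 of 35 members were within 0.25.

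*Gars*, for glycine, had the widest difference of all members, with 24.6 and 27.0 FPKM in A1 and A2 and 38.5 and 39.6 in B1 and B2. The libraries of B were all above those of A, by 0.58 on the log2(FPKM + 1) scale, a ratio of 1.51. *Kars* was higher in B by 0.41, a ratio of 1.34. Without library B1 the *Kars* difference was 0.25, smaller in size than that of *Dars* (-0.34). *Pars2*, *Nars2* and *Sars2* were higher in B by 0.39, 0.32 and 0.31 without overlap. In the other direction, *Hars2* fell by 0.37 and *Fars2* fell by 0.31 from A to B, and *Dars* and *Sars* had -0.25 and -0.22, again without overlap. Further members without overlap were *Yars*, *Wars*, *Wars2* and *Ears2*, higher in B by 0.12 to 0.30, and *Mars*, *Tars* and *Lars*, higher in A by 0.08 to 0.16 in size. With 1 library left out, the 17 members kept the sign of their difference, and 8 of the 17 moved by over 1.5 times. Among these, *Sars2* had 0.48 without A1 and 0.16 without A2, *Hars2* had -0.22 without B2, and *Wars2* had 0.15 without B1. *Ears2* had 0.082 without A1, *Lars* had -0.045 without A2 and *Tars* had -0.10 without B2.

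The median difference, B minus A, was -0.020 for cytosolic and 0.031 for mitochondrial genes, against -0.027 for all expressed genes. Without library A1 the cytosolic median was 0.024, and with TPM in place of FPKM it was -0.073. The mitochondrial median was 0.11 without A1, 0.0026 without A2, -0.056 without B1, 0.11 without B2 and -0.017 with TPM, so neither median had a settled sign. The summed level of the 35 members was 1134, 1118, 1137 and 1089.8 FPKM in A1, A2, B1 and B2. The summed level of 6 mesenchymal and meningeal markers was 620, 603, 2399 and 2889 FPKM in the same order, all 6 being higher in B by 1.53 to 2.34 on the log2(FPKM + 1) scale. *Foxc1*, a defining factor of meningeal cells, had 14.2, 14.1, 29.4 and 115 FPKM, with the highest value in the shallow library. Of the 7 progenitor markers, 4 were higher in A without overlap (background 32.0%) and 0 in B (background 28.1%). The part of these marker signals, and of the lower depth of B2, in the differences of single synthetases was not tested.

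**Figure D4:**
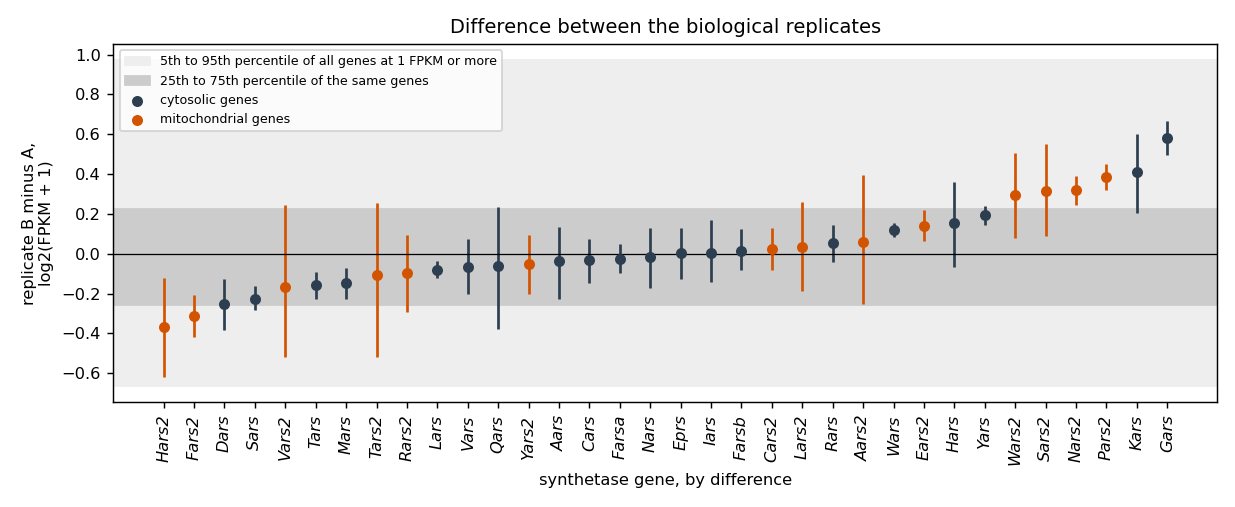
Difference between replicates, B minus A, on the log2(FPKM + 1) scale for 34 members, with lines over the 4 pairings of an A with a B library and bands for all expressed genes. The members lie between -0.37 (*Hars2*) and 0.58 (*Gars*), inside the 5th to 95th percentile of all genes, -0.66 to 0.97.

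Genes that act with the synthetases were counted by lists. Of 11 scaffold and synthetase-like genes, 0 differed between A and B by the rule given above (6.20% of all expressed genes did), 1 was higher in B without overlap (background 28.1%) and 5 were higher in A (background 32.0%). With so few genes a count of 0 is near what the background gives. *Sepsecs* and *Pstk*, which make selenocysteine from serine on its tRNA, had 7.30 ± 2.15 and 23.4 ± 3.47 FPKM and were higher in A without overlap. *Xpot*, an exporter of tRNA from the nucleus, had 7.92 ± 0.166 FPKM.

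Mitochondria lack a dedicated enzyme for glutamine and use an amidotransferase, of which *Gatc* had 37.6 ± 0.827 FPKM and *Qrsl1* 6.18 ± 1.70. *Mtfmt*, which formylates the initiator tRNA, had 18.7 ± 0.651 FPKM, and *Tufm*, the elongation factor that carries charged tRNA to the mitochondrial ribosome, had 86.5 ± 10.7. Of the 12 genes of this list in the tables, 0 of which differed by the rule (background 6.20%), 2 were higher in B and 5 in A without overlap (background 28.1% and 32.0%). Their median of 15.6 ± 0.712 FPKM was above that of the mitochondrial synthetases, 9.20 ± 0.609.

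The amino acid response list held genes around Atf4. *Atf4* had 202 and 206 FPKM in A and 139 and 180.2 in B, *Eif2ak4* had 8.28 ± 0.510 and *Asns*, the asparagine synthetase gene, 6.94 ± 0.949. Levels in the list spread widely, from *Trib3* (0.190 ± 0.0846 FPKM) and *Chac1* (1.70 ± 0.181) through *Ddit3* (22.3 ± 3.08) and *Psat1* (114 ± 13.8) to *Slc3a2* (333 ± 37.2) and *Phgdh*. Of the 21 expressed genes of the list, 5 were higher in B (background 28.1%) and 10 in A (background 32.0%) without overlap, and 2 differed by the rule (background 6.20%). These were *Nupr1*, with 30.7, 33.2, 83.3 and 149 FPKM in A1, A2, B1 and B2, and *Eif4ebp1*, with 44.6, 53.3, 104 and 110.2, both higher in B. *Phgdh*, the first enzyme of serine synthesis, had 885 FPKM in A and 507 in B and was the highest of the list.

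The 7 cytosolic genes whose windows held the amino acid response element had a median of 32.7 ± 1.49 FPKM, and the 10 without a match a median of 55.0 ± 0.486. The ranges overlapped, from 6.86 (*Iars*) to 69.0 (*Aars*) with a match and from 20.3 (*Wars*) to 151 (*Sars*) without. Their median differences between replicates were -0.03 and -0.01 on the log2(FPKM + 1) scale. Without overlap, 2 of the 7 with a match (*Mars* and *Tars*) were higher in A and 1 (*Yars*) in B, and 2 of the 10 without a match were higher in A and 2 in B, beside background shares of 32.0% and 28.1%.

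The levels were set beside other translation genes. The 82 cytosolic ribosomal protein genes had a median of 1114 ± 190.5 FPKM, the 61 initiation and elongation factor genes 67.5 ± 1.20 and the 69 mitochondrial ribosomal protein genes 47.1 ± 0.487. The cytosolic synthetases, at 42.6 ± 1.77, were thus close to the mitochondrial ribosomal proteins and below the translation factors, and the mitochondrial synthetases were lowest. The median difference between replicates, B minus A on the log2(FPKM + 1) scale, was 0.32 for cytosolic ribosomal proteins, of which 62 of the 80 expressed members were higher in B without overlap (background 28.1%), and 0.00 for the 35 synthetases. For mitochondrial ribosomal proteins it was -0.03. No test of these differences between families was made.

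**Figure D5:**
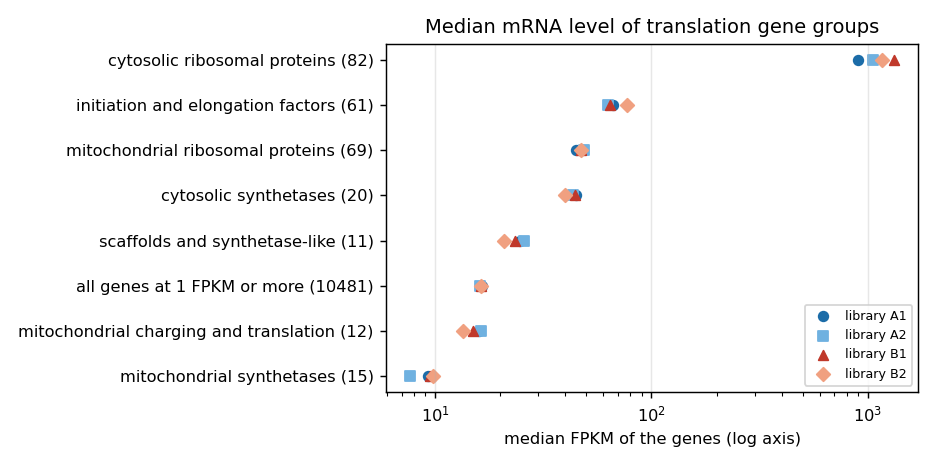
Median FPKM (log axis) of the genes of each group in each of the 4 libraries, with the number of genes in brackets. Cytosolic synthetases lie near 42.6 FPKM and mitochondrial synthetases near 9.20, on either side of all expressed genes at 16.3.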

How the data were processed

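PolyA-selected RNA was sequenced as 4 libraries, A1, A2, B1 and B2, grouped by the sample titles. Start-seq (2 samples) was not analysed here. Reads were aligned to rn6 by the authors with STAR, who deposited FPKM, TPM and coverage per gene. The methods name Rsubread and DESeq2 for FPKM, whereas the tables have the StringTie layout, a tool that the submitters' processing notes list. Tool versions are not given in the sources used here. Deposited TPM values sum to 1000000 per library, and deposited coverage is the mean read depth, which is not scaled. Read totals were not used.

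FPKM was summed over rows of a gene name, A1 was averaged with A2 and B1 with B2, and differences were taken on log2(FPKM + 1). SDs over 2 replicates describe these cultures only. The counting rule was tested on simulated data. A library was called far from the others when its gap to the nearest, divided by the range, was above 0.829. Cytosolic and mitochondrial names follow the closing 2. Of the members, 1 is kept in counts and medians and is not reported by itself here. The others are accounted for, with most detail for the 5 highest and 5 lowest of each class, for any member that differed between A and B and for amino acids whose mitochondrial gene reached the cytosolic one in a library. The members, lists and motifs were chosen with earlier results of these data known. Promoters came from RefSeq (GRCr8) and were matched by symbol or synonym, and protein sequences were not compared here. Python 3.11.15, pandas 2.3.3, numpy 2.4.6 and matplotlib 3.10.9 were used. Alternatives were other units, pseudocounts, filters, scalings and summaries, and leaving out each library or replicate.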

Additional observations from a re-analysis of the deposited data

Results flagged for a closer look

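Each of 38 values was examined for a library far from the other 3 by its gap over the range. This was met by 1 of them, the depth of B2, with a coverage of 6.83 per FPKM against 22.7 to 24.4 in the others. Among the 35 member levels there were 0. Chance gives about 1 in 20 for independent samples, which these technical pairs are not.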

How the results depend on the processing

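For 8 results 83 alternatives were computed, of which 73 stayed within a limit. The limit was the spread between replicates or, for counts, 1.5 times the count. The median differences are themselves taken between A and B and have no such spread. Limits of 0.042 (cytosolic) and 0.14 (mitochondrial) were used for them instead. The other 10 alternatives follow, and the cause was not tested where the setting does not show it. With only members at a mean of 10 FPKM or more, and so fewer genes, the ratio of cytosolic over mitochondrial medians was 2.46 against 4.65, the median log2 ratio within amino acids 1.17 against 2.18, the amino acids with the cytosolic gene higher 4 against 13, the median difference of mitochondrial genes -0.14 against 0.03, and the ratio of complex over other cytosolic genes 1.34 against 1.22. That last ratio was 0.953 by geometric mean and 1.34 without *Iars*, an alternative chosen after seeing the data. A pseudocount of 0.1 gave a median log2 ratio of 2.35. The median difference of cytosolic genes, -0.020, was -0.073 with TPM and between -0.048 and 0.024 with 1 library left out, the last without A1. That of mitochondrial genes, 0.031, was between -0.056 and 0.114 with 1 library left out. The counts of 35 detected members, 13 amino acids and 0 differing members held when any library was left out. *Gars* lay just under the alternative limit of 0.58. No paired analysis was possible because there is 1 condition and Start-seq was left out. Leaving out libraries for single members was also chosen after seeing the data. B2 has the lowest read depth, down to 18.9 over *Pars2*, which may limit the values of its lowest genes. Such an effect of depth by level was not tested. Having 2 replicates limits every SD.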

Other observations

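By class of the catalytic domain, with *Eprs* left out because it holds both, the 9 class I cytosolic genes had a median of 31.7 ± 0.0217 FPKM and the 10 class II genes a median of 55.5 ± 1.30 (SD, n = 2). The ranges overlapped, from 6.86 (*Iars*) to 62.9 (*Qars*) in class I and from 22.6 (*Farsb*) to 151 (*Sars*) in class II. Among mitochondrial genes the medians were 5.73 ± 0.112 FPKM for 7 class I and 9.65 ± 1.04 for 8 class II genes. In the amino acid response list, 5 of 20 promoter windows (25%) held TGATGNAA on either strand, beside 2.06% of the windows of expressed genes and 3.98% of all windows. These were the windows of *Trib3*, *Chac1*, *Pycr1*, *Slc7a1* and *Nupr1*. Those of *Asns*, *Ddit3*, *Psat1*, *Atf5* and *Phgdh* were among the windows without a match. A window without a match does not show that a gene lacks such an element elsewhere.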
